A study of Mus musculus with 8 samples.

Results

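Connexins are the proteins of gap junctions, and 7 mouse connexin genes were followed here in the palatal shelves of embryos that carry extra Pax3. The genes were Gjb2, Gjb5, Gjb6, Gja1, Gja4, Gja5 and Gjc1, and every probe set annotated with exactly 1 of these symbols was taken, which gave 13 of the 45037 probe sets on the array that are not controls. The annotation names 18193 genes in all in this way. Gja1 had 6 probe sets, Gjc1 had 2 and the others had 1 each. The genes were picked because Gjb2 was already known to lie higher in R26Pax3/Pax3 than in wild type on these arrays, so the genotype values of Gjb2 and of the other connexins are given as a description. The question was whether the higher signal of Gjb2 is shared by the other connexins.

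The palatal shelves are the outgrowths of the upper jaw that fuse into the secondary palate. They were dissected at embryonic day 14.5 from R26Pax3/Pax3 embryos and from wild type littermates, both of a C57BL/6 X SV129 cross, with 4 arrays per genotype. The R26Pax3 allele puts Pax3, which encodes a transcription factor with a paired domain and a homeodomain, into the Rosa26 locus. The labels name no Cre or other driver and do not say whether a sample was 1 embryo or a pool, so the errors below measure the spread between these samples. Replicates are named by the numbers of the labels, which are 1, 3, 4 and 7 for R26Pax3/Pax3, called mutant below, and 2, 6, 8 and 11 for wild type.

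In a gap junction, rings of connexins in neighbouring cell membranes dock to form a channel that passes ions and small metabolites from cell to cell. The family is named by the size of the protein and is divided into groups by sequence. Beta connexins such as Gjb2 and Gjb6 are known from stratified epithelium and the inner ear, Gja4 and Gja5 from the endothelium of arteries, Gja1 from mesenchyme, bone, heart and many other tissues, and Gjc1 from smooth muscle of vessels and the early heart. Human GJB2 is the gene most often changed in inherited deafness, and human GJA1 is changed in oculodentodigital dysplasia, which affects the face, the teeth and the bones.

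Signals are MAS5 intensities on a linear scale, and each array had been scaled to a common target. Array medians lay between 43.5 and 44.8, the correlation between arrays on the log2 scale between 0.974 and 0.982, and each array differed from every other. The genotype labels were borne out by Pax3, whose brightest probe set read 619 ± 88.8 in mutant and 162 ± 14.6 in wild type arrays (SD, n = 4 each), with no overlap. The next, 1430335_a_at, read 387 ± 73.1 against 87.0 ± 15.5, also with no overlap. The dimmest, 1441743_at, was not higher in mutant, at 82.5 ± 21.5 against 103 ± 14.0 in wild type, with overlap. Genes of palate mesenchyme were present, with 10 of 10 markers above the array median on at least 1 array, and so were those of epithelium, with 20 of 20. Detection calls were not used here, so a signal under the array median cannot be told from background. Of the 13 connexin probe sets, 11 passed the filter on low signals and 2, those of Gjb5 and Gja5, did not. Differences are log2(signal + 16), mutant minus wild type, with the standard error (SE) and 95% interval of limma. In bulk tissue, fewer cells of a type and less RNA per cell cannot be told apart.

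Gjb2 encodes connexin 26, a channel protein of oral and skin epithelium and of the cochlea. Its probe set, 1423271_at, read 249.2, 198.6, 203.5 and 240.7 in mutant replicates 1, 3, 4 and 7. It read 155.5, 91.2, 90.6 and 122.7 in wild type replicates 2, 6, 8 and 11. All 4 mutant arrays lay above all 4 wild type arrays, and no value was under the array median. The means were 223 ± 25.7 and 115 ± 30.9 (SD, n = 4 each). The ratio was 1.94-fold and the log2 difference 0.89 (SE 0.156, 95% interval 0.55 to 1.23). Of the 27021 probe sets past the filter, 28 had a difference at least as high, or 0.104%, and the genotypes did not overlap with the mutant higher in 1.39%. Those shares describe the probe set by which the genes were chosen and are not evidence for it.

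The wild type level of Gjb2 differed between the arrays deposited first and last, while the mutant means were close to each other. Each of these sets of 4 arrays holds 2 of each genotype. The sets follow the order of deposition, and the labels do not call them batches. Wild type means were 90.9 in the first set and 139.1 in the last, against mutant means of 223.9 and 222.1. The log2 difference between genotypes was therefore 1.16 within the first set and 0.62 within the last. Wild type replicate 2, the brightest of its group, decided the size most: without it the difference was 1.03.

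**Figure D1:**
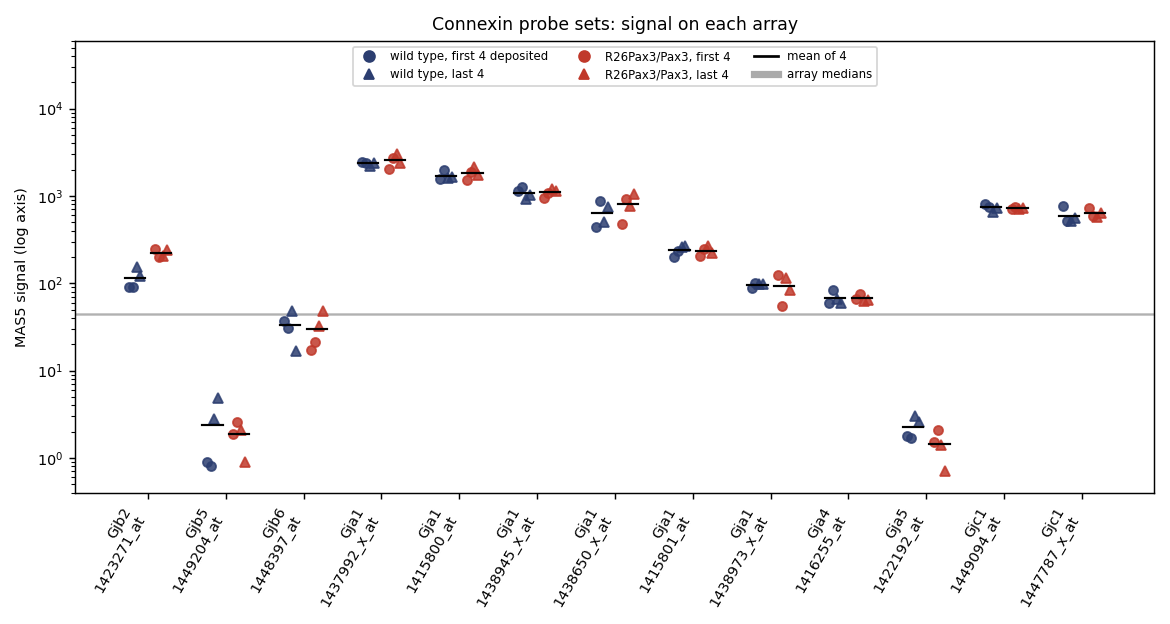
MAS5 signal (log axis) of the 13 connexin probe sets on each array, wild type in blue and R26Pax3/Pax3 in red, circles for the first 4 arrays deposited and triangles for the last 4, black lines for the means of 4 and a grey band for the array medians. Gjb2 is the probe set whose groups do not overlap (90.6 to 155.5 against 198.6 to 249.2), and signals of different probe sets cannot be set against each other.

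The bases before the start of Gjb2 are shown because they set it apart from its chromosomal neighbour Gjb6 in composition. The sequences are RefSeq's, build GRCm38.p6, 5′ to 3′ on the strand of the gene, and each ends at the base before the annotated start. Capitals mark the box bound by Sp1, GGGCGG, as well as an element like the box of TATA-binding protein, TTAAAA, on either strand. For Gjb2 the 250 bases are chr14:57104703-57104952, minus strand.
Gjb2: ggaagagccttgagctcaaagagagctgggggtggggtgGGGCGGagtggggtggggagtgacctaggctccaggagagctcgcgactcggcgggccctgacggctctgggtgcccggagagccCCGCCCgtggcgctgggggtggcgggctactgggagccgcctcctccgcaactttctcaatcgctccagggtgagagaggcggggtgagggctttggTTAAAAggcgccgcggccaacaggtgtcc
The window of Gjb6 is chr14:57133612-57133861, minus strand, and holds neither motif.
Gjb6: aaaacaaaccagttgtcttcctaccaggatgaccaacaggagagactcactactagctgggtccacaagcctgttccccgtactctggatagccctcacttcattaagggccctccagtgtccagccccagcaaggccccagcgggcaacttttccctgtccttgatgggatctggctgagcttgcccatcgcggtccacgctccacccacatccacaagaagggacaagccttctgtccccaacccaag
G and C made up 69.2% of the Gjb2 window and 56.8% of the Gjb6 window, against a median of 52.4% over all 32851 windows, and 10.4% of all windows reached the value of Gjb2.

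The last 60 bases before the start were compared between Gjb2, the arterial connexin Gja5 and the widely expressed Gja1. The windows are chr14:57104703-57104762 (minus strand), chr3:97032342-97032401 (plus strand) and chr10:56377240-56377299 (plus strand), with the same capitals.
Gjb2: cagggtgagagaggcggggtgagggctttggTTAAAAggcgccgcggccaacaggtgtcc
Gja5: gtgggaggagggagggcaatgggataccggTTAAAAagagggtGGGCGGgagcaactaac
Gja1: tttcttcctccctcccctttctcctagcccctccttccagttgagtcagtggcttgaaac
Gjb2 held TTAAAA from 29 to 24 bases before its start and Gja5 from 30 to 25, and the other 4 members with a window, Gjb5, Gjb6, Gja1 and Gja4, held none in this stretch. The letters were thus in 2 of 6 windows of 60 bases, and in 3.93% of all such windows. Gja1 held TGANTCA, the letters of an AP-1 site, from 19 to 13 bases before its start, found in 1.47% of windows of this length. Over 250 bases, TTAAAA was in 4 of the 6 member windows (Gjb2, Gja1, Gja4 and Gja5) and in 17.7% of all windows, and GGGCGG was in 3 (Gjb2, Gja4 and Gja5) and in 32.7%. The letters GTCACGC, a core bound by paired domains such as that of Pax3, were in 0 of the 6 windows and in 1.78% of all. A palindromic pair of homeodomain half-sites was in 0 of the 6 and in 0.384% of all. These are matches of letters on both strands, which show neither binding nor its absence, and Gjc1 has no window here. The motifs were chosen after the sequences were seen, so nothing is read from their shares in the member windows.

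No higher signal was measured for the other epithelial connexins, Gjb6 and Gjb5, which were dim. Gjb6 encodes connexin 30, which pairs with connexin 26 in the inner ear and the epidermis and lies beside Gjb2 on chromosome 14. Its probe set, 1448397_at, read 17.4, 21.2, 32.1 and 47.5 in mutant replicates 1, 3, 4 and 7 and 48.7, 37.1, 30.8 and 16.7 in wild type replicates 2, 6, 8 and 11. The groups overlapped fully, and 6 of the 8 values lay under the array median. The log2 difference was -0.12 (SE 0.248), with an interval from -0.66 to 0.42. All 4 values of the first set of arrays were under the median, so the difference within that set is not given. Gjb5 encodes connexin 31.1, an epidermal connexin of chromosome 4, and its probe set 1449204_at read 0.8 to 4.9 on the 8 arrays, all under the array medians. No size is given for Gjb5, since neither genotype gave a signal that can be told from background.

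Gja1 encodes connexin 43, the connexin through which osteoblasts and many mesenchymal cells are coupled. Its brightest probe set, 1437992_x_at, read 2051.9, 2748.9, 3046.6 and 2408.4 in mutant replicates 1, 3, 4 and 7, and 2198.3, 2443.2, 2400.5 and 2390.4 in wild type replicates 2, 6, 8 and 11. The wild type arrays all lay within the range of the mutant arrays. The log2 difference was 0.11 (SE 0.107, 95% interval -0.13 to 0.34). The second, 1415800_at, had 0.09 (interval -0.15 to 0.34) and 1438945_x_at had 0.01 (-0.22 to 0.24).

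The probe sets of Gja1 differed among themselves in spread. The widest, 1438650_x_at, read 476.5, 933.4, 772.3 and 1061.7 in mutant and 506.8, 435.8, 869.9 and 740.4 in wild type arrays, in the same order of replicates. Both genotypes spanned about the same range there, and the log2 difference of 0.33 had an interval from -0.21 to 0.87. The coefficient of variation on it was 31.1% in mutant and 31.6% in wild type arrays, against 16.8% and 4.62% on the brightest probe set. The dimmer 1415801_at and 1438973_x_at had log2 differences of -0.02 and -0.07, and mutant replicate 3 read 54.8 on the latter, where the wild type arrays lay between 88.6 and 99.9. Of the 6 probe sets of Gja1, 4 were higher and 2 lower in mutant, with overlap on each. An x_at name marks a probe set whose probes may also match other transcripts.

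**Figure D2:**
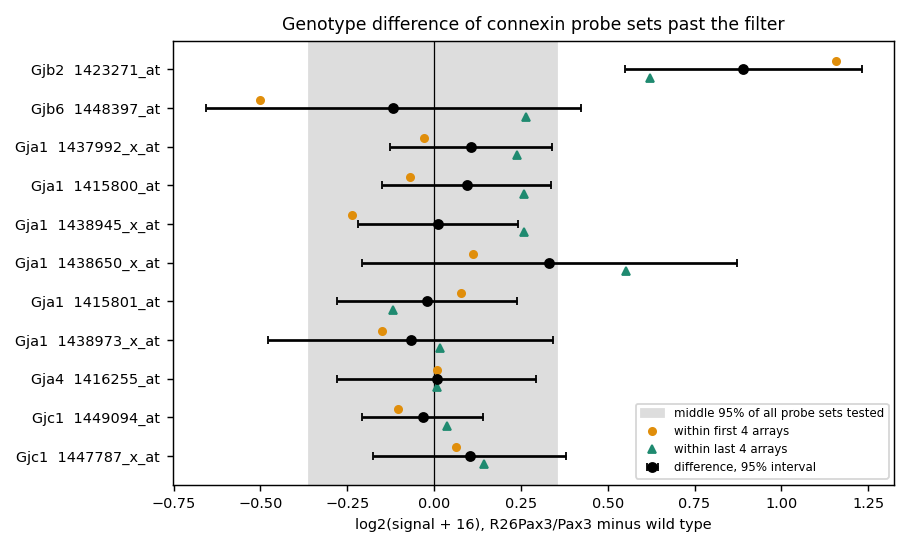
Log2 difference, R26Pax3/Pax3 minus wild type, of the 11 connexin probe sets past the filter, as the fitted value with its 95% interval (black) and within the first (orange circles) and last (green triangles) 4 arrays deposited. The grey band holds the middle 95% of all 27021 probe sets (-0.36 to 0.35), and Gjb2 at 0.89 lies outside it while the other 10 lie inside. The value of Gjb6 within the first 4 arrays rests on signals under the array median.

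Of the arterial connexins, Gja4 had nearly the same mean in both genotypes and Gja5 cannot be told from background. Gja4 encodes connexin 37. Its probe set, 1416255_at, read 66.8, 75.3, 62.2 and 63.9 in mutant replicates 1, 3, 4 and 7 and 66.6, 59.6, 82.8 and 58.9 in wild type replicates 2, 6, 8 and 11. The means were 67.05 ± 5.82 and 66.98 ± 11.1 (SD, n = 4 each), with a log2 difference of 0.01 and an interval from -0.28 to 0.29, and the differences within the sets of arrays were 0.01 each. Gja5, connexin 40, read 0.7 to 3 on 1422192_at, under the median on all 8 arrays, so no size is given.

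The endothelial markers measured beside them were present on all arrays. Of 12 endothelial genes, among them Pecam1 and Cdh5, 8 were higher and 4 lower in mutant, with a median log2 difference of 0.03, and their summed signal ranged from 2248 to 2600 in mutant and from 2237 to 2528 in wild type. Of 5 arterial genes past the filter, 2 were higher and 3 lower. Unc5b, a netrin receptor of arterial and tip cells, read 152 ± 15.9 in mutant against 219 ± 35.0, a log2 difference of -0.48 (limma adjusted p = 0.652). None of these endothelial or arterial genes was called by limma, where 0.0148% of all probe sets were. Unc5b was the 1 with an unadjusted p under 0.05, where 4.86% of all probe sets had one.

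Gjc1 encodes connexin 45, known from vascular smooth muscle and the conduction system of the heart. Its probe set 1449094_at read 715.5, 739.7, 708.1 and 723.5 in mutant replicates 1, 3, 4 and 7 and 660.5, 815.4, 750.9 and 734.6 in wild type replicates 2, 6, 8 and 11. The mutant arrays had a coefficient of variation of 1.88% and lay inside the wild type range. The log2 difference was -0.03 (SE 0.0798), and its interval, -0.21 to 0.14, was the narrowest among the connexins. The second probe set, 1447787_x_at, read 632 ± 71.2 against 593 ± 118 (SD, n = 4 each), a difference of 0.10 with an interval from -0.18 to 0.38.

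Across the connexins other than Gjb2, the measured differences between genotypes were small. The 10 other probe sets past the filter belong to 4 genes, and Gja1 alone has 6 of the 10, so they are not separate members. Of the 10, 6 were higher and 4 lower in mutant (50.3% of all probe sets were higher). They lay between -0.12 and 0.33, with a median log2 difference of 0.01 where all 27021 probe sets had a median of 0.00. None of the 10 had groups without overlap, where 2.73% of all probe sets did, and 0 were called by limma at an adjusted p under 0.05, where 0.0148% of all were called. At an unadjusted p under 0.05 there were also 0 of the 10, against 4.86% of all probe sets. Since the genes were chosen on this contrast, nothing is read from these counts. Each of the 10 intervals held 0 and had its upper bound below 0.89, the value of Gjb2, the nearest being 0.87 on 1438650_x_at of Gja1. The interval of Gjb2 itself begins at 0.55, and the difference between Gjb2 and the other connexins was not tested.

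A contrast that played no part in the choice of genes, the last against the first 4 arrays deposited with genotype in the model, called 40 of 27021 probe sets (0.148%). None of the 11 connexin probe sets was called by limma in it, and 0 had an unadjusted p under 0.05, where 8.83% of all probe sets did. Their log2 differences lay between -0.18 on 1447787_x_at of Gjc1 and 0.27 on Gjb6, and the lowest adjusted p in limma was 0.639, on Gjb2, with a difference of 0.26 (SE 0.141).

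Of the genes measured beside Gjb2 on chromosome 14, only Cryl1 had mean signals above the array medians, and it had no difference like that of Gjb2. By order in RefSeq GRCm38.p6, Gja3, a lens connexin, lies on one side, and Gjb6 and then Cryl1, a crystallin-like dehydrogenase, lie on the other, while Gm32912 and Gm8996, between them, were not analysed here. On its brighter probe set Gja3 read 8 to 22 and was under the median of every array. Cryl1 read 164 in mutant against 175 in wild type, a log2 difference of -0.09 (limma adjusted p = 1.00). Next to the other members, Gpr89 beside Gja5 had -0.11 and Adam11 beside Gjc1 had -0.30 (limma adjusted p = 1.00 each). Adam11 was dim, at 42.0 in mutant and 53.8 in wild type, and its mutant mean lay under the array medians.

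The rest of the family gave no signal that can be told from background. Of 13 further connexin genes, 7 had a probe set of their own, namely Gja3, Gja10, Gjb1, Gjc3, Gjd2, Gjd4 and Gje1. All 7 lay under the array medians on all 8 arrays, and 0 passed the filter. The other 6 were not analysed here.

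Pannexins form channels in the membrane of single cells and are distant in sequence from connexins. Panx3, which is known from osteoblasts and cartilage, read 987.8, 984.2, 962.4 and 841.5 in mutant replicates 1, 3, 4 and 7 on its brightest probe set, 1456073_s_at. Wild type replicates 2, 6, 8 and 11 read 864.3, 1122.0, 1393.8 and 1591.8. Wild type replicate 2 lay inside the mutant range and the other 3 above it. The log2 difference was -0.36 (SE 0.154, limma adjusted p = 1.00), with -0.34 and -0.38 within the first and last set of arrays. A second Panx3 probe set, 1432860_at, had -0.29 (limma adjusted p = 1.00), but -0.65 within the first and 0.06 within the last set. Panx1, a widely expressed pannexin, had -0.12, and Panx2 lay under the array medians.

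Bone genes are given beside Panx3 and Gja1 because osteoblasts use both. Of 9 measured osteoblast genes, from a list of 12, 9 were lower in mutant, with a median log2 difference of -0.33. None was called by limma, where 0.0148% of all probe sets were. At an unadjusted p under 0.05 there were 6 of the 9, where 4.86% of all probe sets had one. Ifitm5, an osteoblast membrane protein, had -0.55 (limma adjusted p = 0.574). The summed signal of the list ranged from 13327 to 15100 in mutant and from 15362 to 19806 in wild type, without overlap. The bone genes were thus lower on the side where Panx3 was lower, while the 3 brightest probe sets of Gja1 were not lower there, and the part of bone cells in either was not tested.

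Proteins that bind connexin 43 were measured through 6 genes. Of these, 5 were higher and 1 lower in mutant on their brightest probe sets, with a median log2 difference of 0.08. By limma 0 were called, where 0.0148% of all probe sets were. At an unadjusted p under 0.05 there was 1 of the 6, where 4.86% of all probe sets had one. Tjp1, which encodes the scaffold ZO-1, had 0.09, the caveolar protein Cav1 had 0.21 and Ccn3 had 0.29. The ubiquitin ligase Nedd4 had 0.05, and -0.01 on each of its dimmer probe sets. The kinase Src had -0.29 on its brighter probe set, with an unadjusted p of 0.0475 (limma adjusted p = 1.00), and -0.06 and -0.52 within the first and last set of arrays.

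Most epithelial markers had a higher mean in mutant, as Gjb2 had, and some did not. Of 20 measured epithelial genes, 16 were higher and 4 lower, where 50.3% of all probe sets were higher, with a median log2 difference of 0.21. None was called by limma, where 0.0148% of all probe sets were. An unadjusted p under 0.05 was found for 7, all higher, where 4.86% of all probe sets had one. Krt17, a keratin of periderm and of activated epithelium, read 543 ± 87.0 against 280 ± 88.1 (log2 difference 0.96, limma adjusted p = 0.462). Sfn, the 14-3-3 protein of stratified epithelia, read 154 ± 10.4 against 99.6 ± 12.8 (0.56, limma adjusted p = 0.368). Krt14, the keratin of basal cells, had 0.62, but Epcam and Krt8, of epithelium at large, had 0.03 and -0.03. The summed signal of the list ranged from 10181 to 13444 in mutant and from 9622 to 11239 in wild type, with overlap. No marker of the list lay under the median on all arrays.

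Of the suprabasal genes, 6 of 10 passed the filter, with 4 higher and 2 lower and a median of 0.02. Krt6a, a keratin of periderm, read 986 ± 235 against 529 ± 126, without overlap (0.88, limma adjusted p = 0.497). Krt1 (0.08) and Krt10 (0.01), of the suprabasal epidermis, did not differ beyond their spread, and Ivl, Sprr1a, Sprr1b and Dsc1 lay under the median on all arrays. Both lists include genes known to lie higher on these arrays, so their direction is not independent of earlier results.

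Gjb2 was also set against the epithelial list on each array. On the log2 scale Gjb2 minus the mean of the 20 genes was -1.01 ± 0.107 in mutant and -1.65 ± 0.284 in wild type (SD, n = 4 each). The mutant arrays ranged from -1.17 to -0.94 and the wild type arrays from -1.97 to -1.34. The genotype difference of Gjb2, on which the genes were chosen, enters these values, so nothing is read from that separation. The list mean includes genes with differences near 0, such as Epcam, as well as Krt17, whose difference was as large as that of Gjb2, so these values depend on the genes listed and are a description. Mutant replicate 3 had a list mean of 8.69, near those of wild type replicates 8 (8.71) and 2 (8.76), and its Gjb2 value was 7.75 where theirs were 6.74 and 7.42. The other 3 mutant arrays had list means above all wild type arrays. How much of the difference in Gjb2 goes with the amount of epithelium in the sample was not tested.

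**Figure D3:**
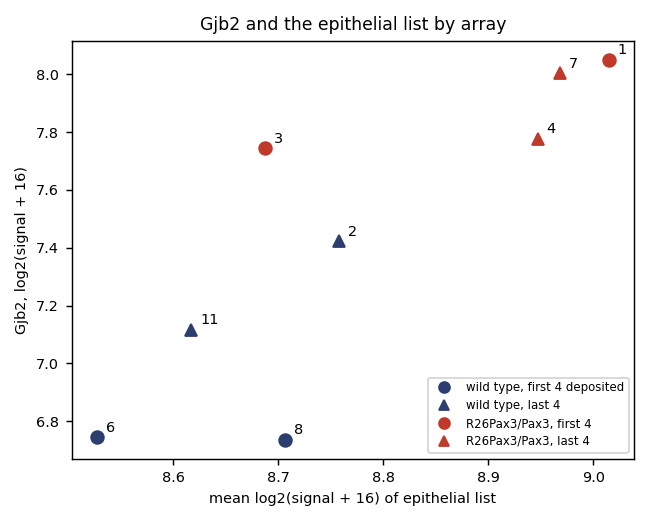
Gjb2 against the mean of 20 epithelial genes, both as log2(signal + 16), for the 8 arrays, with replicate numbers, colours for genotype and shapes for the first and last 4 arrays deposited. Mutant replicate 3 (epithelial mean 8.69, Gjb2 7.75) has an epithelial mean near those of wild type replicates 8 (8.71, Gjb2 6.74) and 2 (8.76, Gjb2 7.42), and the other 3 mutant arrays lie to the right of all wild type arrays.

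Within genotypes, the connexins did not vary as a group. After the mean of each genotype was removed, which takes the genotype difference out, the correlation of Gjb2 with the other 10 probe sets over the 8 arrays ranged from -0.82, on 1449094_at of Gjc1 and 1438945_x_at of Gja1, to 0.29, on 1415801_at of Gja1. With Gjb6 it was 0.17. The 3 brightest probe sets of Gja1 went together at 0.67 to 0.81, while 1438973_x_at went with none of the other 5 (-0.43 to -0.06). The probe sets of Gjc1 reached 0.66. These values are descriptions over arrays of 2 genotypes and 2 sets that share their scaling.

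**Figure D4:**
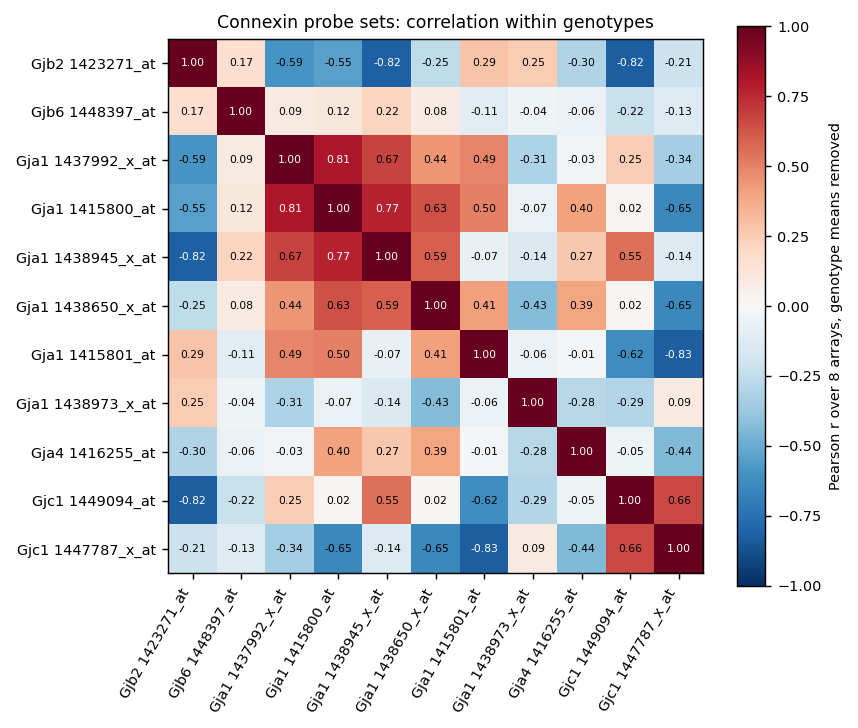
Pearson correlation between the 11 connexin probe sets past the filter over 8 arrays after removal of the genotype means, from -1 (blue) to 1 (red). The brighter probe sets of Gja1 form a red block with values up to 0.81, and Gjb2 has no value above 0.29.

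By the same measure, Gjb2 was compared with 22777 named probe sets. Among the 5 most alike were Firre, a noncoding RNA (0.98), Drg1, a GTPase (0.97), Mydgf, a secreted growth factor (0.97), and Adam15, a membrane metalloprotease (0.97). The least alike were Cox7c and Rbm25 (-0.98 each) and Ufd1 (-0.97). Of the 22777 probe sets, 25 lay above 0.95, 126 above 0.9 and 112 below -0.9. None of the 4 named as most alike had a higher signal in mutant beyond overlap, with log2 differences between -0.13 and 0.07. The genes of the epithelial list ran from -0.57 to 0.86, with values on both sides of 0. Krt14 was the highest of them and Krt17 was at 0.33, while Krt6a of the suprabasal list reached 0.74. Array means of the marker lists ranged from -0.89 (neuron) to 0.65 (macrophage), with epithelium at 0.56 and endothelium at 0.59.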

How the data were processed

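The deposited table holds linear signal intensities per probe set for 8 Affymetrix arrays, deposited by the authors; the submitters' processing notes name MAS5 without a version. The submitters' label protocol describes biotinylated cRNA from total RNA. After 64 control probe sets were left out, log2(signal + 16) was taken with no further normalization, and probe sets up to the 40th percentile of the mean signal (25.4) were dropped, leaving 27021. The genotype fit used limma 3.58.1 under R 4.3.3 (lmFit, eBayes with trend), all 8 arrays, no covariates, Benjamini-Hochberg over all probe sets tested. The number of arrays limits the precision. On simulated data for R26Pax3/Pax3 against wild type with 27021 probe sets, the fit recovered 28% of probe sets given a log2 change of 0.5, then 84% for 1 and 98% for 2. At each size 50 probe sets were changed, up to a log2 change of 3, and 5 unchanged ones were called. With that many true changes the Benjamini-Hochberg cutoff is looser than with the 4 calls in these data. The shares recovered there can thus be higher than those reached here.

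Genes were named from the array annotation through probe sets with 1 symbol, and 7 of 7 members matched RefSeq (GRCm38.p6), whose coordinates are used only for the sequences and gene order, since no build is given for the array. Promoter windows matched 6 of 7 members. A gene in a list is represented by its brightest probe set.

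The members and lists were chosen with earlier results of these data known, and the motifs after the sequences were seen. The named genes are all member probe sets, list genes with the smallest p (up to 4 per marker list), chromosomal neighbours, and the 5 most and 3 least alike to Gjb2, of which 1 is not reported here; Epcam, Krt8, Krt10, Pecam1, Cdh5, Ivl, Sprr1b, Dsc1, Myh11, Tjp1, Cav1, Nedd4 and Panx1, outside that rule, were named as list members after their values were seen. Alternatives changed the pseudocount, filter, scaling, block, eBayes setting and arrays.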

Additional observations from a re-analysis of the deposited data

How the results depend on the processing

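No paired analysis was possible because the genotypes share no replicate number in the labels. Under 14 alternatives the log2 difference of Gjb2 lay between 0.69 (pseudocount 64) and 1.03, and leaving out each array in turn gave 0.80 to 1.03. Without wild type replicate 2, Gjb2 was among 6 probe sets called; under the other settings run it was not called. The median of the other 10 connexin probe sets ranged from -0.01 to 0.06 when 1 array was left out, and it was -0.01 with 1 probe set per gene and -0.02 without x_at probe sets, both added after the data were seen. Of 140 values of single probe sets of the other connexins under alternatives, 15 changed sign. All 140 moved by less than the spread between replicates, but most of them could not have moved further. Leaving out 1 of 4 arrays shifts a difference by less than that spread, and neither the block nor the filter changes it. Nothing is read from that count. The count of all probe sets called by genotype was 4, and 4 to 9 when 1 array was left out, with 9 without mutant replicate 3, and included the same 4. The count for the last against the first arrays, 40, fell to 24 without the filter on low signals and to between 19 and 36 when 1 array was left out, with 19 without mutant replicate 4, 23 without mutant replicate 1 and 25 without wild type replicate 11; these fits had fewer arrays. For Gjb5, Gja5 and the 7 further connexins, dim signal limits any statement about genotype.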

Other observations

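Genes of mural cells, which surround vessels and are known to use Gjc1, were listed as markers. They had a median log2 difference of 0.15, with 4 of 7 higher and 3 lower in mutant. Tagln, an actin-binding protein of smooth muscle, read 303 ± 44.2 in mutant against 162 ± 47.0 (SD, n = 4 each), without overlap between the groups (log2 difference 0.87, limma adjusted p = 0.368). Pdgfrb and Rgs5, of pericytes, had 0.15 and 0.16, while Cspg4 of the same list had -0.22. Myh11, the myosin of mature smooth muscle, lay under the median on all 8 arrays.

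Nerve and muscle genes varied between arrays of 1 genotype. The mean of 8 neuronal genes was 5.78 and 5.88 on the log2 scale in wild type replicates 2 and 11, which had the higher Gjb2 signals of their group, and 7.59 and 6.97 in wild type replicates 6 and 8. The mean of 7 muscle genes was 6.01 in mutant replicate 7 and between 7.42 and 8.63 on the other arrays. Between genotypes, the neuronal list had a median log2 difference of 0.77, with 8 of 8 higher in mutant, and the muscle list had -0.54, with 0 of 7 higher. In the first set of 4 arrays the list means differed by 0.11 for neuronal and 0.07 for muscle genes, and in the last set by 1.34 and -1.25. Of the remaining lists, palate mesenchyme had a median log2 difference of 0.04, with 6 of 10 higher, glia had 0.03, with 2 of 3 higher, and macrophages had 0.04, with 4 of 6 higher. None of these genes was called by limma, where 0.0148% of all probe sets were. At an unadjusted p under 0.05 there were 3 of 8 neuronal genes and 1 of 10 palate mesenchyme genes, all higher. The share over all probe sets was 4.86%, and nothing is read from the 1 of palate mesenchyme. None of the 26 groups of 4 connexin values held an array far from the other 3 by Dixon's criterion.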
